A study of Macaca mulatta with 449 samples.

Results

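The comparison below sets the globus pallidus (GP) against the corpus callosum (CC) in the same 8 rhesus macaques, so 16 of the 408 sub-region RNA libraries with counts were used, 8 from GP and 8 from CC. The libraries were chosen by the region codes 51 (GP) and 34 (CC) in the sample labels, and no measured value entered the choice. The study dissected the brains of healthy, untreated animals into small tissue pieces, removed ribosomal RNA and sequenced 1 library for each region of each animal. Of the 8 animals, 4 were male and 4 female, and 4 were young (3.2 to 5 years) and 4 mid-aged (9.8 to 10 years). All carried no introduced allele or agent, and GP and CC of an animal shared its age and sex, so that the animal was the block in every test. The animals are named by the numbers of the labels, 2, 3, 4, 6, 7, 8, 10 and 11.

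The GP is a nucleus of the basal ganglia, and the labels name no segment of it. Its projection neurons release GABA, are known for firing at high rates, and lie among dense bundles of myelinated axons that arrive from the striatum and give the nucleus its pale look. It is also among the brain regions richest in iron. The CC is the white matter tract that joins the hemispheres, made of myelinated cortical axons, oligodendrocytes, astrocytes and microglia, and it borders the lateral ventricles, whose walls carry ciliated ependymal cells and whose cavity holds choroid plexus. Both tissues are thus rich in myelin, and their comparison asks which transcripts set a myelinated nucleus with neurons apart from a tract without many of them.

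Libraries held between 8901320 and 20271150 counts on genes. Levels are given as CPM, read counts scaled to a common library size by the TMM method, and 14440 genes had enough counts to be tested. A log2FC is the log2 of the GP level over the CC level from edgeR's quasi-likelihood fit with the animal as block, the SE is its standard error, and FDR is its Benjamini-Hochberg adjusted p over all genes tested. A gene was called higher or lower in GP at FDR < 0.05 and a change of more than 2-fold. In bulk tissue, fewer cells of a type and less RNA per cell cannot be told apart. The 16 libraries are separate dissections, and some stood apart from their group. The GP library of animal 3 had a summed level of 15 striatal medium spiny neuron genes of 2397 CPM, against 519 to 804 CPM in the other GP libraries. The GP library of animal 2 had a summed myelin gene level of 109029 CPM, inside the CC range, against 53150 to 78048 CPM in the other GP libraries. The GP libraries of animals 2 and 4 also had the lowest transcript integrity of the GP samples in the study's own quality table. The CC library of animal 10 had the highest choroid plexus sum, 2551 CPM against 243 to 911 CPM in the other CC libraries.

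The labels fitted the markers of both tissues. GAD1, which makes GABA from glutamate, lay at 167 CPM in the lowest, 381 CPM in the median and 451 CPM in the highest GP library, and at 11.4, 23.2 and 43.2 CPM in CC (log2FC 3.90, SE 0.26, FDR 1.1e-06). SFRP1, a secreted inhibitor of Wnt signalling, lay at 24.96, 56.3 and 91.7 CPM in GP and at 137, 483 and 923 CPM in CC (log2FC -3.01, SE 0.23, FDR 2.5e-06). The GP and CC libraries did not overlap for either gene. NKX2-1, the factor that specifies the medial ganglionic eminence from which pallidal neurons derive, was below the filter on low counts, with 3 to 45 counts in each GP library and 0 to 4 counts in each CC library.

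Across all genes, 1354 were called higher in GP and 544 lower. These were 9.38% and 3.77% of the genes tested, the shares against which the counts in each gene group are to be read. Of the genes called, 1177 were higher in GP in all 8 animals and 463 were lower in all 8. The share of all genes without overlap between the tissues is not given here, so remarks on overlap describe single genes only. The median log2FC of all genes tested was -0.01. By median, the lists that stood highest in GP were those of GABA neurons, neurofilaments and perineuronal net, and cholinergic neurons (with only 2 genes tested). Fast-spiking channels and the list of synaptic vesicle and neuronal genes came next. The groups that stood lowest were genes of choroid plexus, ependymal cilia and myelin.

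**Figure D1:**
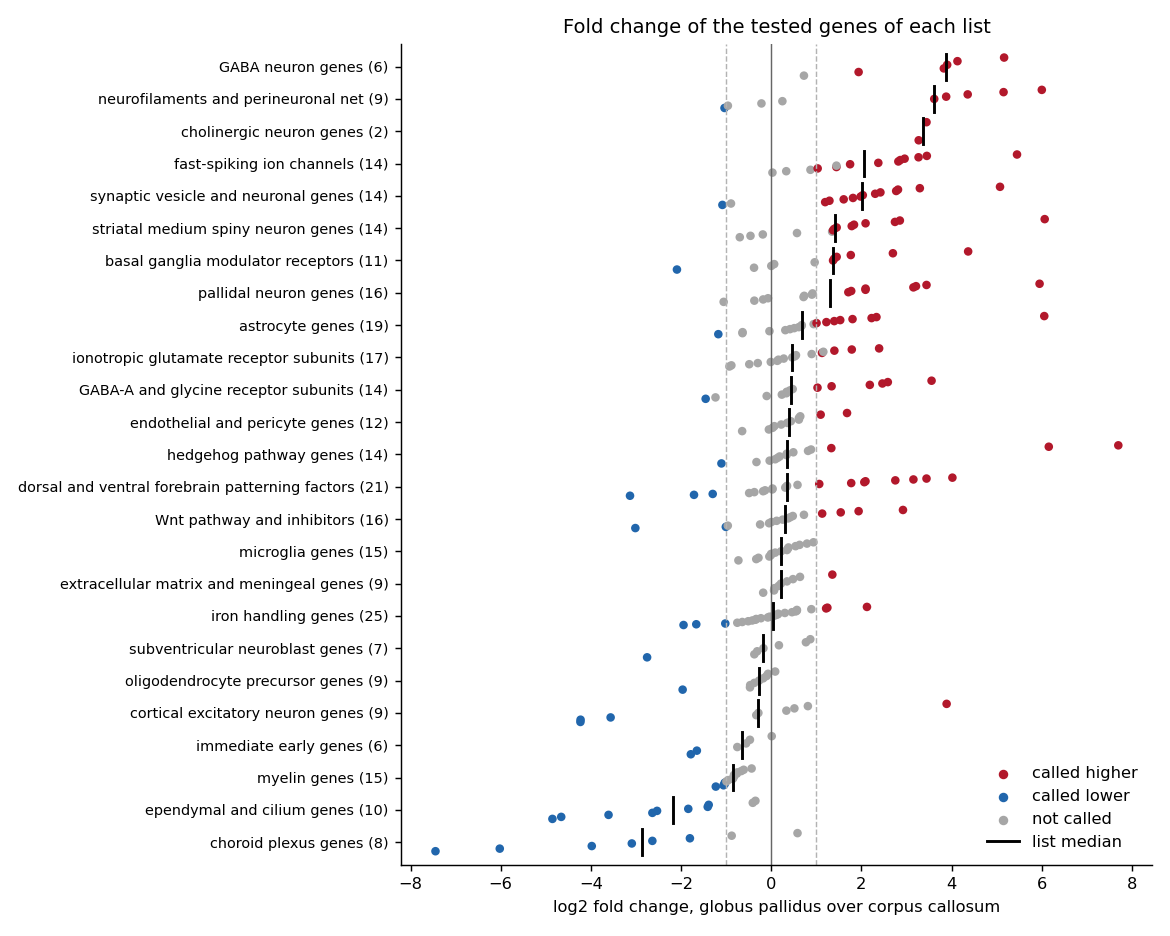
Log2 fold change (x axis, GP over CC) of each tested gene of each gene list, with the number tested in brackets and 1 list per line, ordered by median. Red points are genes called higher in GP, blue points genes called lower, grey points not called, black bars list medians and dashed lines the 2-fold threshold. GABA neuron genes had the highest median, 3.87, and choroid plexus genes the lowest, -2.86.

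GABA neuron genes were higher in GP in all 6 cases tested, and 5 of 6 were called higher (median log2FC 3.87). GAD2, the second GABA-synthesizing enzyme, lay at 130, 327 and 431 CPM in the lowest, median and highest GP library and at 8.32, 19.01 and 27.7 CPM in CC (log2FC 4.13, SE 0.27, FDR 7.5e-07). SLC32A1, which loads GABA into synaptic vesicles, lay at 20.2, 77.9 and 96.6 CPM in GP and at 2.32, 4.43 and 10.4 CPM in CC (log2FC 3.83, SE 0.32, FDR 3.9e-06). For GAD1, GAD2 and SLC32A1 the lowest GP library was that of animal 2, and it still lay above every CC library. The largest difference of the group was in SLC6A11, a GABA transporter of astrocytes, with 27.9, 163 and 257 CPM in GP and 2.48, 3.51 and 5.75 CPM in CC (log2FC 5.17, SE 0.25, FDR 1.8e-07). ABAT, which breaks GABA down, differed less, but with a narrow spread, at 458 to 692 CPM in GP and 118 to 158 CPM in CC (log2FC 1.94, SE 0.08, FDR 4.4e-08).

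Genes listed for pallidal neurons were called higher in 8 of 16 tested and lower in none (median log2FC 1.31). These calls include PENK and LHX8, which also belong to the lists of striatal and of cholinergic neurons given below. The median lay at 0.86 without animal 10 and at 1.87 without animal 2, and 4 further genes of the list were below the filter. PVALB, the calcium buffer parvalbumin of fast-firing neurons, lay at 17.3, 77.9 and 114 CPM in GP and at 0.43, 0.93 and 2.88 CPM in CC (log2FC 5.95, SE 0.41, FDR 1.2e-06). The lowest GP value of PVALB was that of animal 3, and it remained above the CC libraries. Of the transcription factors of these neurons, NPAS1 (log2FC 3.21, SE 0.39), LHX6 (2.09, SE 0.33), FOXP2 (1.77, SE 0.23) and SIX3 (3.15, SE 0.42) were called higher. SOX6, which is shared with oligodendrocyte precursors, was not called, with 21.5 to 47.7 CPM in GP and 31.8 to 40.5 CPM in CC (log2FC -0.07, SE 0.12, FDR 0.63). MEIS2 was not called either (log2FC -0.18, SE 0.12, FDR 0.24).

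Potassium and sodium channels of fast-spiking neurons were called higher in 10 of 14 tested and lower in none (median log2FC 2.06, and 2.66 without animals 2 and 4). KCNC1, a Kv3 potassium channel that repolarizes the membrane fast, lay at 48.1, 103 and 150 CPM in GP and at 0.80, 2.46 and 3.55 CPM in CC (log2FC 5.45, SE 0.33, FDR 5.6e-07). Its relatives KCNC2 (log2FC 3.45, SE 0.40) and KCNC4 (3.27, SE 0.17) were also called higher. SCN1A, a sodium channel of fast-spiking neurons, had a log2FC of 2.82 (SE 0.19, FDR 1.2e-06), with 66.0 to 180 CPM in GP and 12.6 to 23.9 CPM in CC. The pacemaker channels HCN2 (log2FC 2.86, SE 0.20) and HCN4 (2.96, SE 0.36) were called higher as well.

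Neurofilament genes, whose products fill thick axons, were far higher in GP. NEFH, the heavy chain, lay at 82.6, 268 and 338 CPM in GP and at 0.45, 3.36 and 7.31 CPM in CC (log2FC 6.00, SE 0.46, FDR 2.5e-06). NEFL, the light chain, lay at 670, 1476 and 2135 CPM in GP and at 15.9, 36.4 and 64.6 CPM in CC (log2FC 5.15, SE 0.42, FDR 3.7e-06). NEFM followed, at 291 to 1166 CPM in GP and 22.7 to 71.6 CPM in CC (log2FC 3.88, SE 0.40). INA lay at 214 to 606 CPM in GP and 12.8 to 31.3 CPM in CC (log2FC 4.36, SE 0.30). In the same list, which held 9 tested genes with 5 called higher and 1 lower, the perineuronal net genes did not move together. HAPLN4, a link protein of these nets, was called higher (log2FC 3.62, SE 0.48, FDR 1.1e-04). ACAN, the net proteoglycan aggrecan, was not called (log2FC 0.25, SE 0.24, FDR 0.40), with 2.12 to 7.18 CPM in GP and 0.93 to 9.90 CPM in CC. VCAN, the proteoglycan versican, was called lower in GP (log2FC -1.04, SE 0.14), but it lay within 2-fold without animal 2 (-0.94), without animal 4 (-0.95), without the block and under library totals alone.

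Genes of synaptic vesicles and of neurons in general, held in a single list, were called higher in 12 of 14 tested and lower in 1 (median log2FC 2.01). The gene called lower was lost without animal 4 or animal 8, and 2 were called lower without animal 3, 7 or 11. CPLX1, a complexin that clamps and triggers vesicle fusion at fast synapses, lay at 302, 440 and 552 CPM in GP and at 6.46, 12.9 and 24.1 CPM in CC (log2FC 5.08, SE 0.23, FDR 1.7e-07). SNAP25, of the fusion machinery, lay at 721 to 1660.05 CPM in GP and at 101 to 292 CPM in CC (log2FC 2.81, SE 0.22, FDR 2.7e-06), and STMN2, a tubulin regulator of neurons, had a log2FC of 3.30 (SE 0.25). Against the whole atlas the SNAP25 level was low in both tissues. By the median over animals, GP ranked 48 of the 51 sub-regions for SNAP25 and CC ranked 51.

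**Figure D2:**
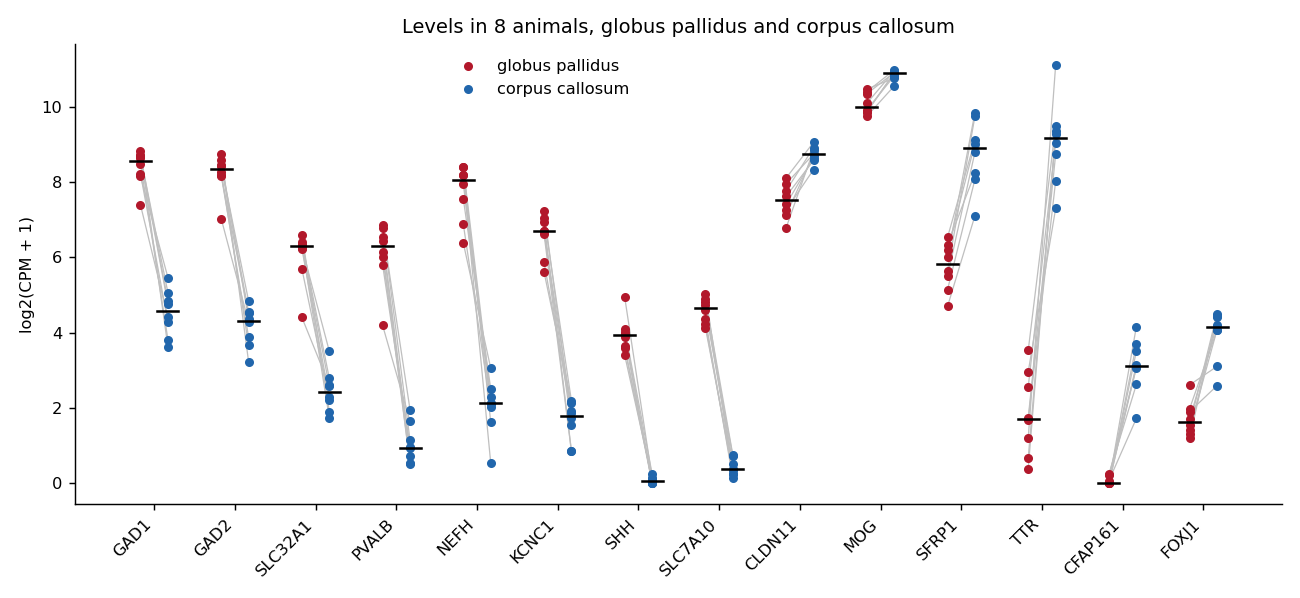
Level of 14 genes as log2(CPM + 1) (y axis) in the GP (red) and CC (blue) libraries of the 8 animals, with grey lines joining the libraries of an animal and black bars the medians. GAD1 lay at 167 to 451 CPM in GP and 11.4 to 43.2 CPM in CC, and SFRP1 at 24.96 to 91.7 CPM in GP and 137 to 923 CPM in CC.

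Receptor subunits gave a mixed picture. Of 14 subunits of GABA-A and glycine receptors tested, 6 were called higher and 1 lower (median log2FC 0.45). GABRB2, a beta subunit of GABA-A receptors, was called (log2FC 2.19, SE 0.76, FDR 0.032) but lost the call with either wider filter and when any of 6 animals was left out, with an FDR of up to 0.12. Its GP values were 1.77 and 1.49 CPM in animals 2 and 4, inside the CC range of 0.71 to 8.55 CPM, and 17.7 to 36.7 CPM in the others, and without both animals the log2FC was 3.13 at an FDR of 0.0014. GLRA2, a glycine receptor subunit, had the largest difference of the list (log2FC 3.56, SE 0.37, FDR 1.7e-05).

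Of 17 ionotropic glutamate receptor subunits, 4 were called higher and none lower (median log2FC 0.47). GRIN1, the obligatory NMDA receptor subunit, was highest in fold (log2FC 2.39, SE 0.22, FDR 9.7e-06), with 49.96 to 133 CPM in GP and 7.31 to 32.4 CPM in CC. GRIN2D, an NMDA subunit of basal ganglia and brainstem neurons, had a log2FC of 1.79 (SE 0.24, FDR 1.1e-04) and GRIA4, the AMPA subunit of fast-spiking neurons, 1.13 (SE 0.10, FDR 5.3e-06). The kainate subunit GRIK2 was the other gene called (log2FC 1.401, SE 0.15). Among 11 modulator receptors tested, 6 were called higher and 1, HTR2C, lower (log2FC -2.09, FDR 0.049). The HTR2C call was lost when any of animals 2, 7, 8, 10 and 11 was left out and with library totals or either wider filter. Its highest CC value, 84.0 CPM, was that of animal 10, whose CC library also had the highest choroid plexus sum. The other CC libraries held 5.73 to 35.6 CPM of HTR2C, and the part of choroid plexus in these values was not tested. The largest difference of the modulator receptors was in CHRM2, a muscarinic acetylcholine receptor, with 5.18, 20.98 and 37.8 CPM in GP and 0.09, 0.66 and 2.59 CPM in CC (log2FC 4.37, SE 0.56, FDR 8.7e-05). TACR1, the substance P receptor, followed (log2FC 2.70, SE 0.27, FDR 1.1e-05). DRD2, the dopamine D2 receptor, lay at 3.35, 7.92 and 41.3 CPM in GP and at 2.14, 3.50 and 4.25 CPM in CC (log2FC 1.37, SE 0.32, FDR 0.0043). The highest DRD2 value was that of animal 3, and the log2FC without that animal was 1.07. The cannabinoid receptor CNR1 was not called (log2FC 0.07, SE 0.50, FDR 0.92), and the opioid receptor OPRM1 was below the filter, at no more than 1.06 CPM in any of the 16 libraries.

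Genes of striatal medium spiny neurons, whose axons end in the GP and whose cell bodies lie in the adjoining putamen and caudate nucleus, were called higher in 9 of 14 tested and lower in none (median log2FC 1.42). SYNDIG1L, a transmembrane protein of striatal neurons, lay at 43.9, 69.5 and 163 CPM in GP and at 0.33, 1.18 and 2.48 CPM in CC (log2FC 6.07, SE 0.31, FDR 2.0e-07). PPP1R1B, the dopamine-regulated phosphatase inhibitor DARPP-32, lay at 174, 197 and 389 CPM in GP and at 24.04, 67.5 and 87.1 CPM in CC (log2FC 1.79, SE 0.19, FDR 2.2e-05). Neither gene overlapped between the tissues. PENK, the enkephalin precursor of striatal neurons that project to the GP, lay at 8.95, 22.5 and 259 CPM in GP and at 2.85, 5.77 and 14.7 CPM in CC (log2FC 2.09, SE 0.39, FDR 0.0011), and TAC1, the substance P precursor, at 5.79, 13.2 and 89.8 CPM and 0.55, 2.73 and 7.40 CPM (log2FC 2.75, SE 0.39, FDR 1.8e-04). The highest GP value of all 4 genes was that of animal 3, which also held 890 CPM of ARPP21 against 74.4 to 323 CPM in the other GP libraries. Without animal 3, 8 genes of the list were called higher and the median log2FC was 1.06. The levels were far under those of the striatum itself. On the scale of all 408 libraries the median of PPP1R1B was 202 CPM in GP and 2655 CPM in putamen, and that of SYNDIG1L was 72.0 and 1691 CPM. DRD1 was called only narrowly (log2FC 1.45, SE 0.56, FDR 0.048) and lost the call under most alternatives, and PDE10A was not called (log2FC 1.35, SE 0.67, FDR 0.11) although it passed without animal 2 or without the block. The part of striatal cell bodies in these values was not tested.

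Cholinergic neurons of the basal forebrain lie within and around the GP. Of 8 genes of such neurons, 6 were below the filter and both of those tested, NGFR (log2FC 3.27, SE 0.42, FDR 8.3e-05) and LHX8 (log2FC 3.45, SE 0.56, FDR 4.3e-04), were called higher. Without animal 10, LHX8 fell below the filter and 1 gene of the list was called, while with either wider filter 6 were called higher. CHAT, which makes acetylcholine, had 148 counts over the 8 GP libraries and 1 count over the 8 CC libraries, a ratio of 148 with a 95% counting interval of 26.1 to 5880. The GP value of CHAT ran from 0 CPM in animal 2 to 5.12 CPM in animal 6. NGFR was likewise highest in animal 6, with 58.3 CPM against 2.39 to 26.8 CPM in the other GP libraries.

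SLC17A6, the vesicular glutamate transporter of thalamic and subthalamic neurons, lay at 6.38, 10.4 and 43.5 CPM in GP and at 0.35, 0.81 and 1.67 CPM in CC (log2FC 3.89, SE 0.41, FDR 2.1e-05). SLC17A7, the vesicular glutamate transporter of cortical neurons, went the other way, at 0.16, 1.44 and 5.08 CPM in GP and 5.58, 40.2 and 69.3 CPM in CC (log2FC -4.23, SE 0.51, FDR 5.2e-05). Neither gene overlapped between the tissues. NEUROD6 (log2FC -4.23, SE 0.58) and FEZF2 (-3.56, SE 0.35), transcription factors of cortical projection neurons, were also called lower in GP. The list of cortical excitatory neuron genes had been drawn up with SLC17A6 in it, which was its 1 gene called higher. Without SLC17A6, a choice made after the values were seen, 3 of 8 genes tested were called lower and none higher, with a median log2FC of -0.31. The summed level of the list without it ran from 30.4 to 122 CPM in CC and from 19.7 to 32.2 CPM in GP, so that the groups overlapped. In CC, SLC17A7 was lowest in animals 7 and 10. What share of the CC values came from cortex taken with the dissection was not tested.

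Myelin genes were lower in GP throughout, by small folds. All 15 tested were lower at FDR < 0.05, against 3593 of all 14440 genes tested. Of the 15, 4 passed 2-fold, the others lying within it (median log2FC -0.84). MOG, on the outer face of the sheath, lay at 861, 1031 and 1423 CPM in GP and at 1507, 1920.4 and 2024 CPM in CC (log2FC -0.76, SE 0.10, FDR 7.2e-05), without overlap. MBP, which holds the cytoplasmic faces of the sheath together, differed less (log2FC -0.61, SE 0.16, FDR 0.0080). The highest MBP library of all 16 was the GP of animal 2, at 70096 CPM, whereas the other GP libraries held 25319 to 35979.97 CPM and CC 47072 to 58619.8 CPM. The genes past 2-fold were CLDN11 (log2FC -1.23, SE 0.13), the tight junction protein of myelin, ERMN (-1.06, SE 0.15), MYRF (-1.03, SE 0.17), the master regulator of myelination, and FA2H. CLDN11 held its call in each alternative, while without animal 4 ERMN (-0.90) and MYRF (-0.87) lay within 2-fold and 1 gene of the list was called lower. By median, CC ranked first and GP second of the 51 sub-regions for MOG and OPALIN.

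Oligodendrocyte precursor genes differed little. Of 9 tested, 1 was called lower and none higher (median log2FC -0.27). PDGFRA, the receptor that marks precursors, lay at 133 to 207 CPM in GP and 153 to 197 CPM in CC (log2FC -0.18, SE 0.09, FDR 0.13), and CSPG4 was not called either (log2FC -0.10, SE 0.10, FDR 0.38). The gene called was ENPP6, which marks oligodendrocytes that have just begun to differentiate, with 7.82, 17.4 and 22.2 CPM in GP and 46.9, 60.1 and 79.0 CPM in CC, no overlap and the largest fold of the list (log2FC -1.96, SE 0.14, FDR 1.1e-06).

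Of 19 astrocyte genes tested, 8 were called higher in GP and 1 lower (median log2FC 0.68). The largest fold was in a transporter. SLC7A10, a transporter of D-serine and neutral amino acids, lay at 16.5, 24.4 and 31.9 CPM in GP and at 0.09, 0.295 and 0.68 CPM in CC (log2FC 6.06, SE 0.23, FDR 3.0e-08). FGFR3, a fibroblast growth factor receptor of astrocytes, had a log2FC of 2.33 (SE 0.17), the gap junction gene GJB6 2.23 (SE 0.15) and ATP1B2, a sodium pump subunit, 1.80 (SE 0.11). GFAP, the intermediate filament protein of astrocytes, was lower in GP within 2-fold, at 1585 to 3359 CPM against 2766 to 5056 CPM in CC (log2FC -0.64, SE 0.10, FDR 3.1e-04). CD44, an adhesion receptor of fibrous astrocytes, was called lower, at 11.1 to 27.1 CPM against 32.5 to 58.2 CPM (log2FC -1.17, SE 0.14, FDR 3.4e-05), although without animals 2 and 4 it came to -0.97. AQP4, the water channel, was higher within 2-fold (log2FC 0.67, SE 0.18, FDR 0.0090). SLC1A2, the main glutamate transporter, was not called (log2FC 0.61, SE 0.48, FDR 0.30), but its GP values were 17.95 and 21.04 CPM in animals 2 and 4 and 69.0 to 192 CPM in the others, and without those animals the log2FC was 1.31 at an FDR of 0.0035. The part of transcript integrity in the low values of animals 2 and 4 was not tested.

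By median over the 51 sub-regions, GP ranked first for SLC7A10, GJB6 and FGFR3 while CC ranked 50. These ranks are descriptions, with no test between sub-regions. The median of SLC7A10 was 25.4 CPM in GP and 21.1 CPM in the ventral tegmental area, the next in order, and that of GJB6 was 130 CPM in GP and 124 CPM in the thalamus. For SLC6A11, the substantia nigra ranked first with 188 CPM and GP second with 168 CPM.

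**Figure D3:**
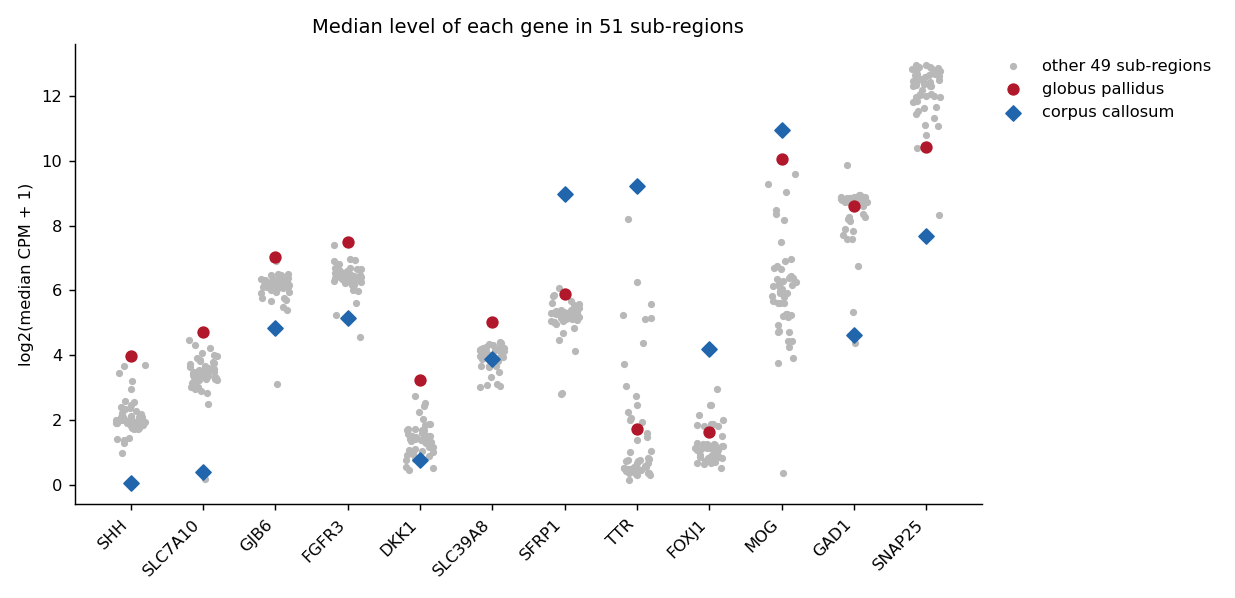
Median level over the 8 animals as log2(CPM + 1) (y axis) of 12 genes in each of the 51 sub-regions, with GP as red circles, CC as blue diamonds and the other sub-regions in grey. GP ranked 1 of 51 for SHH, SLC7A10, GJB6, FGFR3, DKK1 and SLC39A8, and CC ranked 1 for SFRP1, TTR, FOXJ1 and MOG.

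Of 15 microglia genes tested, none was called by edgeR, while 5 were higher and 1 lower at FDR < 0.05 within 2-fold (median log2FC 0.22). Over all 14440 genes tested, 3879 were higher and 3593 lower at that FDR and any fold. C1QB, a subunit of the complement protein C1q, came nearest to the fold threshold, at 38.5, 58.1 and 110 CPM in GP and 19.5, 27.9 and 65.4 CPM in CC (log2FC 0.94, SE 0.12, FDR 6.8e-05), and passed it without animal 7 (1.04). P2RY12, a receptor of resting microglia, had a log2FC of 0.54 (SE 0.15, FDR 0.010) and CX3CR1 0.37 (SE 0.15, FDR 0.063). Of 12 endothelial and pericyte genes, 2 were called higher. They were PDGFRB, of pericytes (log2FC 1.10, SE 0.09, FDR 3.2e-06), and ACTA2, the actin of arterial smooth muscle (log2FC 1.68, SE 0.23, FDR 1.2e-04). PECAM1 of endothelium was higher within 2-fold (log2FC 0.61, SE 0.11, FDR 5.8e-04).

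Iron handling genes, asked about because the GP stores much iron, did not move as a group. Of 25 tested, 3 were called higher in GP and 3 lower, and the median log2FC was 0.05. At FDR < 0.05 alone 17 passed, of which 8 were higher and 9 lower, against 3879 higher and 3593 lower of all 14440 genes tested. The median log2FC lay at -0.0457 without animal 2, at -0.0588 with no filter and at -0.0403 with the detection filter, on the other side of 0. The ferritin chains, which store iron, went apart. FTL, the light chain, lay at 983, 1528 and 2122 CPM in GP and at 848, 1085 and 1403 CPM in CC (log2FC 0.46, SE 0.11, FDR 0.0043). FTH1, the heavy chain, lay at 1272, 1982 and 2486 CPM in GP and at 1802, 2637 and 3189 CPM in CC (log2FC -0.42, SE 0.10, FDR 0.0054). The libraries overlapped for both chains and neither passed 2-fold.

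Genes of iron import and export were found in both directions. TF, the carrier transferrin that oligodendrocytes make, was lower in GP within 2-fold (log2FC -0.75, SE 0.10, FDR 1.1e-04). TFRC, the transferrin receptor (log2FC -0.33, SE 0.12, FDR 0.042), and SLC11A2, the divalent metal transporter DMT1 (log2FC -0.51, SE 0.12, FDR 0.0043), were lower by smaller folds. TFR2, the second transferrin receptor, was called higher at low levels, 1.59 to 6.05 CPM in GP and 0.11 to 1.39 CPM in CC (log2FC 2.12, SE 0.31, FDR 1.7e-04). SLC39A8, an importer of divalent metals, was also called higher, at 21.8, 30.9 and 37.9 CPM in GP and 6.85, 13.2 and 18.3 CPM in CC, without overlap (log2FC 1.22, SE 0.14, FDR 3.3e-05). Its relative SLC39A14 was higher within 2-fold (log2FC 0.89, SE 0.14, FDR 3.3e-04). SLC40A1, the exporter ferroportin, was higher within 2-fold (log2FC 0.57, SE 0.11, FDR 9.5e-04). The copper oxidases that act beside ferroportin differed in direction, since HEPH, hephaestin, was called higher (20.8, 46.8 and 59.8 CPM in GP, 11.9, 18.97 and 22.9 CPM in CC, log2FC 1.246, SE 0.16, FDR 6.7e-05) and CP, ceruloplasmin, was called lower (2.23, 5.74 and 10.3 CPM in GP, 9.96, 21.2 and 54.5 CPM in CC, log2FC -1.94, SE 0.26, FDR 1.2e-04). STEAP3, a ferrireductase of endosomes, was lower too (log2FC -1.66, SE 0.18). The highest CC value of CP was that of animal 10 and the lowest that of animal 4. These CC libraries also had the highest and the lowest choroid plexus sum, and the part of choroid plexus in the CP values was not tested. By median, GP ranked 1 and CC 2 of 51 for FTL, and CC ranked 1 and GP 2 for FTH1. HAMP, the iron hormone hepcidin, was below the filter in both tissues.

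**Figure D4:**
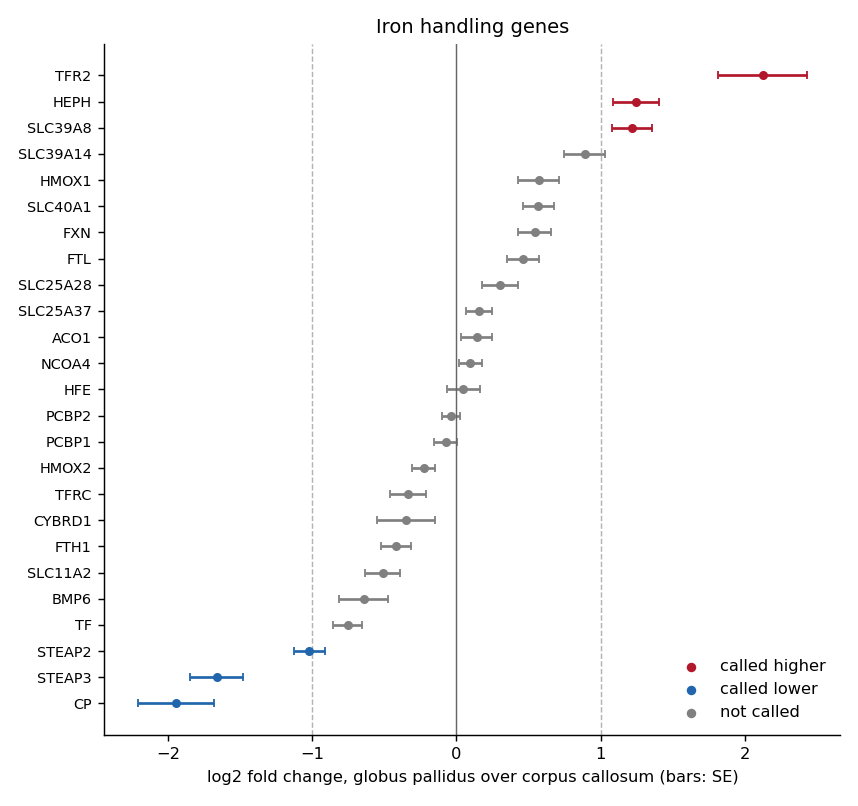
Log2 fold change (x axis, GP over CC) with its SE of the 25 iron handling genes tested, ordered by fold change, with genes called higher in red, called lower in blue and not called in grey. The values ran from -1.94 for CP to 2.12 for TFR2, and 3 genes were called in each direction.

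The gene with the largest fold of the 12 named as higher in GP was SHH, the secreted ligand sonic hedgehog. It lay at 9.57, 14.2 and 29.8 CPM in GP, highest in animal 4, and at 0 to 0.18 CPM in CC (log2FC 7.70, SE 0.33, FDR 5.6e-08). The CC libraries held 6 counts of it in all and the GP libraries 1493. By median, GP ranked first of 51 sub-regions with 14.7 CPM, followed by the hypothalamus with 11.9 CPM, and CC ranked last. GLI1, the transcription factor that hedgehog signalling induces, lay at 1.24, 4.21 and 19.6 CPM in GP and at 0 to 0.25 CPM in CC (log2FC 6.16, SE 0.47, FDR 1.9e-06). GP ranked 7 of 51 for GLI1.

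The remaining hedgehog pathway genes were listed after these values were seen, and the list supports nothing by itself. Of 14 tested, 3 were called higher and 1 lower, with a median log2FC of 0.34. Without animal 2, 5 were called higher and 1 lower, and without animals 2 and 4, 5 were called higher and none lower. GLI2, a transducer of the signal, was the third gene called higher (log2FC 1.33, SE 0.25, FDR 0.0011). PTCH1, the receptor for the ligand, was higher within 2-fold and without overlap, at 116, 128 and 198 CPM in GP and 75.7, 97.1 and 109 CPM in CC (log2FC 0.49, SE 0.10, FDR 0.0015). SMO, the signal-transducing membrane protein, was not called (log2FC 0.14, SE 0.19, FDR 0.55). HHIP, a membrane protein that binds the ligand and blocks it, was called lower in GP, at 26.8, 66.3 and 138 CPM against 111, 144 and 199 CPM in CC (log2FC -1.10, SE 0.25, FDR 0.0035), and without animal 4 it lay within 2-fold (-0.87).

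Other genes named by rank were KLHL1, an actin-binding protein of neurons (3.78 to 11.3 CPM in GP, 0 to 0.42 CPM in CC, log2FC 5.80, SE 0.38), and SCTR, the secretin receptor (3.17 to 11.4 CPM in GP, 0 to 0.28 CPM in CC, log2FC 5.64, SE 0.46). For SCTR only the pituitary ranked above GP. Neither gene overlapped between the tissues. A higher level in GP in each of the 8 animals was part of the rule that named them, so it adds no support.

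Wnt pathway genes had SFRP1 at one end and DKK1 at the other. Of 16 tested, 4 were called higher and 2 lower (median log2FC 0.31, and 0.11 without animal 2), and 1 was called lower without animal 2, 4 or 11 or without the block. DKK1, a secreted inhibitor of Wnt co-receptors, lay at 1.89, 8.23 and 16.2 CPM in GP and at 0.46, 0.67 and 2.67 CPM in CC (log2FC 2.92, SE 0.43, FDR 2.1e-04). DKK3 (log2FC 1.94, SE 0.12) and FRZB (1.54, SE 0.16), further secreted proteins of these families, were also called higher, while WIF1 was not called (log2FC 0.00, SE 0.40, FDR 0.99). SFRP1 was far above all other sub-regions in CC, with a median of 499.6 CPM there, 66.2 CPM in the ventral tegmental area, the next in order, and 57.9 CPM in GP.

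Of 21 forebrain patterning factors tested, 8 were called higher in GP and 3 lower (median log2FC 0.34). Beside LHX6, LHX8, SIX3 and FOXP2, the factors IRX1 (log2FC 4.02, SE 0.40, FDR 1.1e-05) and IRX2 (2.75, SE 0.40) were called higher, at no more than 7.08 CPM in GP. NR2F2 (log2FC 2.07, SE 0.16) and NR2F1 (log2FC 1.07, SE 0.12) were the others called higher. LHX2, a factor of the cortical field, was called lower, at 1.01, 1.54 and 5.82 CPM in GP and 11.3, 18.6 and 20.8 CPM in CC (log2FC -3.13, SE 0.25, FDR 2.2e-06). ZIC2 was called lower too (log2FC -1.71, SE 0.19, FDR 2.8e-05). PAX6, which acts in the cortical field as well, was higher in GP within 2-fold (log2FC 0.35, SE 0.09, FDR 0.0062), and OTX1 was not called (log2FC 0.02, SE 0.19, FDR 0.92).

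The 12 genes named as lower in GP were for the most part genes of choroid plexus and of motile cilia. TTR, the thyroid hormone carrier that choroid plexus makes in bulk, lay at 0.31, 2.28 and 10.6 CPM in GP and at 157, 575 and 2222 CPM in CC (log2FC -7.45, SE 0.68, FDR 8.2e-06). CLIC6, a chloride channel protein of choroid plexus, lay at 0 to 0.59 CPM in GP and 4.79 to 66.4 CPM in CC (log2FC -6.02, SE 0.49). Both were highest in the CC of animal 10, and neither overlapped. Of 8 choroid plexus genes tested, 6 were called lower in GP, and the same number were called lower without animal 10. The summed level of the list was 21.7 to 52.1 CPM in GP and 243 to 2551 CPM in CC. FOLR1, the folate receptor of choroid plexus (log2FC -1.80, SE 0.35, FDR 0.0015), AQP1 (-3.09, SE 0.22) and KL (-2.64, SE 0.40) were among those called, LMX1A was below the filter and had a median of 0 CPM in GP, and OTX2 was not called (log2FC 0.58, SE 0.38).

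Of 10 ependymal and cilium genes tested, 8 were called lower in GP and none higher (median log2FC -2.19). FOXJ1, the master regulator of motile cilia, lay at 1.31, 2.08 and 5.12 CPM in GP and at 5.04, 16.8 and 21.8 CPM in CC (log2FC -2.64, SE 0.39, FDR 2.5e-04). Genes of the ciliary axoneme that were called lower included TEKT1 (log2FC -4.66, SE 0.35), a tektin, SPAG17 (-3.61, SE 0.38), of the central pair, and DNAH2 (-5.22, SE 0.41), an axonemal dynein heavy chain. CFAP161, CFAP54, RIBC2 and ARMC3, further genes of cilia, had log2FC between -6.99 and -4.55. CAPSL had 2 counts over the GP libraries and 545 over the CC libraries, a CC over GP ratio of 273 with a 95% counting interval of 75.1 to 2258. The other genes named were FAM81B, GSTA5, a glutathione transferase, and SLC47A2, a cation exporter with 0.23 to 1.18 CPM in GP and 9.09 to 58.0 CPM in CC. GSTA5 belongs to a family of near-identical copies, among which reads may have been split. The summed level of the ependymal and cilium list was 39.7 to 58.8 CPM in GP and 65.5 to 212 CPM in CC. The part of ventricular wall and choroid plexus tissue in these differences was not tested.

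**Figure D5:**
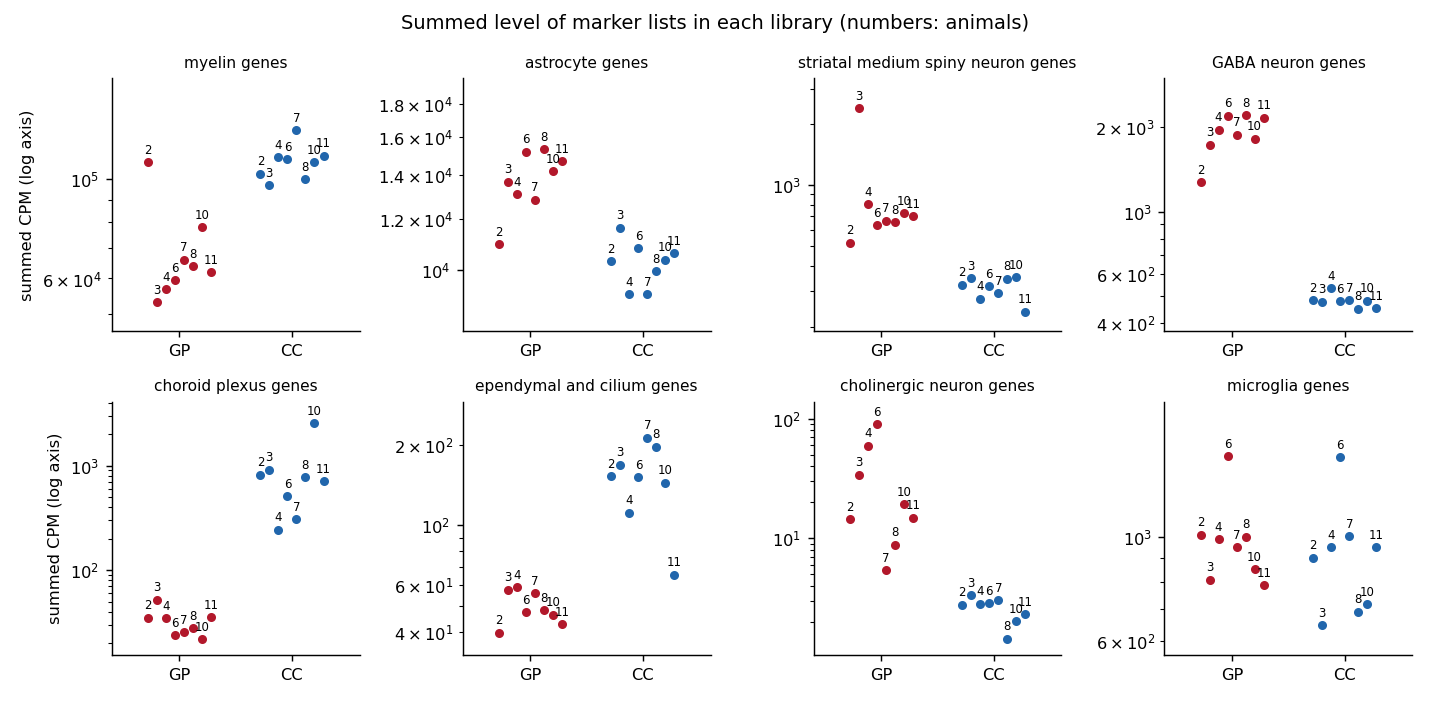
Summed CPM of 8 marker lists (y axes, logarithmic and different for each panel) in each GP (red) and CC (blue) library, with the animal's number above its point. The GP library of animal 3 stood highest for striatal genes (2397 CPM), the GP library of animal 2 lay in the CC range for myelin genes (109029 CPM), and choroid plexus genes were higher in each CC library (243 to 2551 CPM) than in any GP library (21.7 to 52.1 CPM).

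Further lists held few calls. Of 7 genes of subventricular neuroblasts tested, CD24 was called lower (log2FC -2.75, SE 0.43, FDR 3.4e-04) and DCX, a tubulin-binding protein of migrating neuroblasts, was not called (log2FC -0.31, SE 0.43, FDR 0.57). Of 6 immediate early genes, FOS (log2FC -1.78, SE 0.32, FDR 7.8e-04) and NR4A3 (-1.65, SE 0.19, FDR 3.7e-05) were called lower. Of 9 genes of extracellular matrix and meninges, ASPN was called higher (log2FC 1.36, SE 0.22) and COL1A1 was not called (log2FC 0.06, SE 0.27). None of the 3 blood genes with a symbol in the table passed the filter.

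Whether the difference between GP and CC depended on age or sex was tested as an interaction with the animal as block. Between young and mid-aged animals, 4 against 4, no gene was called by edgeR at FDR < 0.05, 170 had an unadjusted p below 0.05, and DESeq2 called 2. These were SLC22A6, an organic anion transporter, and SERPINA3, an acute-phase protease inhibitor. SLC22A6 had a GP minus CC difference of 1.59 on the log2(CPM + 1) scale in mid-aged animals (range 1.04 to 2.24) and 3.06 in young animals (range 2.62 to 3.32, edgeR log2 interaction -2.12, SE 0.36, FDR 1.00). It was named for its small interaction FDR, so the gap between these ranges adds no support. CDKN1A, a cell cycle inhibitor, had differences of 0.33 and -1.15, and SNX31 of -0.78 and -1.89, in mid-aged and young animals, also at an FDR of 1.00 by edgeR. Between females and males, 4 against 4, no gene was called by edgeR or by DESeq2, and 458 had an unadjusted p below 0.05. The genes with the smallest FDR, 0.98 by edgeR, were DNAH7, a ciliary dynein (-1.78 in females and -3.24 in males), CALY (2.71 and 1.57) and TCEAL5 (1.96 and 0.86). For age and for sex, the count with an unadjusted p below 0.05 lay under the share of 0.05 of the 14440 genes tested that chance alone gives. With 4 animals on each side, differences of this size did not pass edgeR's correction over these genes.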

How the data were processed

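RNA of brain regions from 8 macaques was sequenced after ribosomal RNA removal with a kit that keeps strand. The count table used here holds 51 sub-regions, and the midbrain libraries were not used here. The authors trimmed reads with Trim Galore 0.4.4, mapped them with HISAT2 2.0.5 to Mmul 8.0.1, counted them on Ensembl 91 genes with HTSeq 0.6.1 and deposited whole-number counts per gene, not normalized. How the counting treated strand and overlapping genes is not given in the sources used here, and genes that overlap, lie antisense or have near copies may share reads. A reference table gave symbols to 17572 of the 30807 genes, and 400 more had one in the study's supplement. The 2408 genes with a shared symbol were not used in lists.

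Counts of 16 libraries (8901320 to 20271150 each) were tested in R 4.3.3 with edgeR 4.0.16 (TMM, filterByExpr, robust quasi-likelihood F test, animal as block). SE is the absolute log2FC over the square root of F. Ranks over 51 sub-regions use medians of CPM scaled by TMM over all 408 libraries. GP and CC are paired because they come from the same animal, and deviations from the region means correlated at 0.05 to 0.54 within animals, 7 of 8 highest with their own. Low-depth genes are imprecise, and counting intervals are exact binomial (95%) and cover counting error only.

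Named genes were, per direction, the 12 with a symbol, at least 5 CPM in the higher region, FDR < 0.05, the same sign in 8 animals and the largest absolute log2FC, plus the core genes of 25 lists, up to 3 further called members of a list, and 3 genes with the smallest FDR per interaction. The members and lists were chosen with earlier results of these data known, and the hedgehog list was added after its values were seen. Alternatives were no block, DESeq2 1.42.0 or its size factors, library totals, no filter or detection above 1 count in 3 samples, other thresholds and each animal left out. The fits were tested on simulated data. The assembled transcripts and ATAC-seq libraries were not analysed here. Summaries used pandas 2.3.3, numpy 2.4.6 and scipy 1.17.1 under Python 3.11.15, and plots matplotlib 3.10.9. Some genes of the lists are counted in their lists but not reported here by name.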

Additional observations from a re-analysis of the deposited data

Results flagged for a closer look

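Of 279 sets of 8 libraries of a named gene in GP or CC, 31 had a highest or lowest library that lay apart from the other 7 by Dixon's gap criterion. The gaps were taken on log2(CPM + 1). Chance alone gives about 1 set in 20 where sets are independent and normally distributed. Genes of the same libraries vary together, so that rate is no measure for the 31 sets. The 31 sets fell on few libraries, with 8 in the GP of animal 2, 7 in the GP of animal 3, 4 in the GP of animal 4 and 4 in the CC of animal 10.

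In the GP of animal 2, neuronal and astrocyte genes were low, with GAD1 at 167 CPM, GAD2 at 130 CPM (129.9), SLC32A1 at 20.2 CPM, SCN1A at 66.0 CPM, HCN4 at 0.591 CPM, SV2A at 55.5 CPM and FGFR3 at 75.7 CPM, and MBP was high at 70096 CPM. In the GP of animal 3, striatal genes were high, with PENK at 259 CPM, PPP1R1B at 389 CPM, RGS9 at 20.0 CPM and PDE1B at 82.0 CPM. The same library was high for DNAH2 (1.27 CPM) and TEKT1 (1.16 CPM) and low for PVALB (17.3 CPM). In the GP of animal 4, SHH (29.8 CPM), SMO (22.3 CPM) and FRZB (170 CPM, 169.9) were high and SLC11A2 (28.5 CPM) was low. COL1A1 was low in the GP of animal 8 (0.468 CPM).

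In the CC of animal 10, choroid plexus genes were high, with CLIC6 at 66.4 CPM, FOLR1 at 38.9 CPM, PRLR at 16.2 CPM and KL at 74.2 CPM. In the CC of animal 7, AQP1 (15.5 CPM) and SOX6 (31.8 CPM) were low. In the CC of animal 3, SIX3 (1.30 CPM) and HCN4 (1.11 CPM) were high. Single low values in CC were those of PTCH1 in animal 6 (75.7 CPM), GABRE in animal 8 (12.4 CPM) and ATP1B2 in animal 4 (99.0 CPM).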

How the results depend on the processing

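The 1898 genes called became 533 (403 higher and 130 lower) at more than 4-fold and 7472 (3879 and 3593) at FDR < 0.05 alone, and lay between 1764 and 1972 with an animal left out. Without the replicate block, which pairs the libraries of an animal, 1819 were called (1352 higher and 467 lower), and among the named genes this ended the calls of GABRE (FDR 0.063), VCAN and MYRF and added PDE10A (FDR 0.013). DESeq2 called 1921, library totals alone 1915, no filter 2492, detection above 1 count in 3 samples 2583, and leaving out animals 2 and 4 gave 1861. Median log2FC of pallidal neuron genes lay between 0.86 and 1.87 with an animal left out (highest without animal 2) and at 1.86 without animals 2 and 4, where fast-spiking channels lay at 2.66. Iron genes lay at -0.0588 with no filter, at -0.0403 with the detection filter and between -0.0457 (without animal 2) and 0.0975 with an animal left out, and Wnt genes between 0.11 and 0.41. Age interactions numbered 2 by DESeq2 (FDR 0.017 for SLC22A6 and SERPINA3) and 0 by edgeR. Of 146 named genes tested 111 were called, and 9 of these lost the call in at least 1 of 15 alternatives, namely GABRB2, CD44, HHIP, VCAN, GABRE, HTR2C, DRD1, ERMN and MYRF, while PDE10A, SLC1A2 and C1QB gained one. The 9 do not include LHX8, which fell below the filter without animal 10. They do not include FA2H either, whose call was lost without animal 4. No named gene that was called changed direction in these alternatives, whereas the median of the iron genes changed sign. Where no construction of the alternative shows it, the cause was not tested. Genes near the filter, such as NKX2-1 and CHAT, had few counts, and the part of depth in this was not tested.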
